A study of Homo sapiens with 12 samples.

Results

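The genes described here are 48 human genes of DNA replication and the G1/S transition, placed in the list by their known function. Earlier results of these data were known when the list was made. Each was read at the probe set that the platform annotation pairs with it alone, and where a gene had several, at the one with the highest mean log2 intensity over all 12 arrays. All 48 were measured, among 11940 genes in all. Expression was measured on 1-colour Affymetrix arrays in HEL, a human erythroleukaemia line, labelled as an AML line, in which every JAK2 copy carries an activating mutation. Cells received lentivirus of a puromycin-selectable pLKO vector with the JAK2 hairpin Jak2-9, the JAK2 hairpin Jak2-10, the control GFP (called both a vector control and a hairpin control in the labels) or the luciferase control hairpin Luc. Each of these 4 groups had 3 arrays. All groups share the mutant line, and the labels give neither the time after infection nor the origin of the numbered replicates. Each p-value therefore weighs a difference against array-to-array spread that may be only technical.

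Before a cell copies its DNA, the origin recognition complex, CDC6 and CDT1 load the MCM2 to MCM7 ring onto origins in G1, which is called licensing. At the start of S phase the kinase CDC7, switched on by a regulatory partner, and cyclin E with its kinase turn licensed rings into active helicases together with CDC45 and the GINS complex. Polymerases, the sliding clamp PCNA and its loader RFC then copy both strands, and many of these genes are transcribed under E2F factors as cells leave G1.

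The JAK2 transcript was lower on every knockdown array. Its log2 intensity was 9.37, 9.89 and 10.08 with Jak2-9 and 10.06, 10.04 and 9.78 with Jak2-10, against 10.47, 10.40 and 10.68 in GFP cells and 10.47, 10.63 and 10.56 in Luc cells. Knockdown cells held 63.1% of the control level, a log2 fold change of -0.67 ± 0.11 (SE; limma, Benjamini-Hochberg adjusted p = 0.00400 over 11940 genes, as for every adjusted p below unless stated). With Jak2-9 alone the value was -0.75 ± 0.13 (adjusted p = 0.00768), and with Jak2-10 alone -0.58 ± 0.13, which missed the threshold (adjusted p = 0.0824). Jak2-9 replicate 1 stood apart. Over all genes it correlated at 0.987 with the mean of its group mates, against 0.9950 to 0.9983 for the other arrays, and limma gave it the lowest weight of the 12, 0.124, followed by Jak2-10 replicate 3 at 0.355. All 7 measured erythroid markers were above the array median on every array, while 4 of 5 monocyte and granulocyte markers (CD14, MPO, ELANE and CSF1R) were below it on every array, as were 2 of 5 lymphoid (CD3E and MS4A1) and 3 of 5 epithelial and fibroblast markers (EPCAM, KRT8 and COL1A2). In each of the monocyte and granulocyte, lymphoid, and epithelial and fibroblast lists 1 marker was above the median on every array: ITGAM, NKG7 and KRT18. Of 6 megakaryocyte markers 5 were above the median on every array. The summed intensity of the 5 monocyte and granulocyte markers was 181 to 226 with Jak2-9 and 179 to 198 with Jak2-10, against 184 to 200 in GFP cells and 184 to 197 in Luc cells. That of the 5 lymphoid markers was 179 to 258 with Jak2-9 and 189 to 206 with Jak2-10. Their control sums were 167 to 189 in GFP cells and 166 to 216 in Luc cells. The sum of the 5 epithelial and fibroblast markers was 289 to 420 with Jak2-9 and 236 to 287 with Jak2-10, against 238 to 257 in GFP cells and 229 to 276 in Luc cells. In these lists 3 markers rose with Jak2-9, KRT18, the erythroid globin HBZ and the megakaryocyte gene SELP, as 1.60% of all genes did. Each was highest on Jak2-9 replicate 1. On the Jak2-9 arrays KRT18 read 8.21, 7.88 and 7.44, HBZ 9.19, 8.37 and 8.33, and SELP 8.87, 8.63 and 8.75. The part of these rises in the Jak2-9 results was not tested.

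The replication genes as a group stayed near their control levels when JAK2 was reduced. In knockdown versus control 2 of 48 fell, DBF4B and CDC7 (4.17% of the genes, against 1.39% of all genes measured), and 0 rose (0.436% of all genes). Their median log2 fold change was 0.03, and the median of all genes was 0.04. Of the 48 genes 26 were above 0 and 22 below (54.2% and 45.8%, against 63.5% and 36.5% of all genes). Their quartiles were -0.07 and 0.12, against -0.04 and 0.12 for all genes, and 9 of the 48 differed from control by more than 0.2 on the log2 scale, as 16.8% of all genes did. At an unadjusted p under 0.05, 6 genes were higher and 5 lower, which is 12.5% and 10.4% of the list, against 10.5% and 5.72% of all genes. The arrays read bulk RNA, so fewer cells in S phase and less RNA per cell cannot be told apart.

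**Figure D1:**
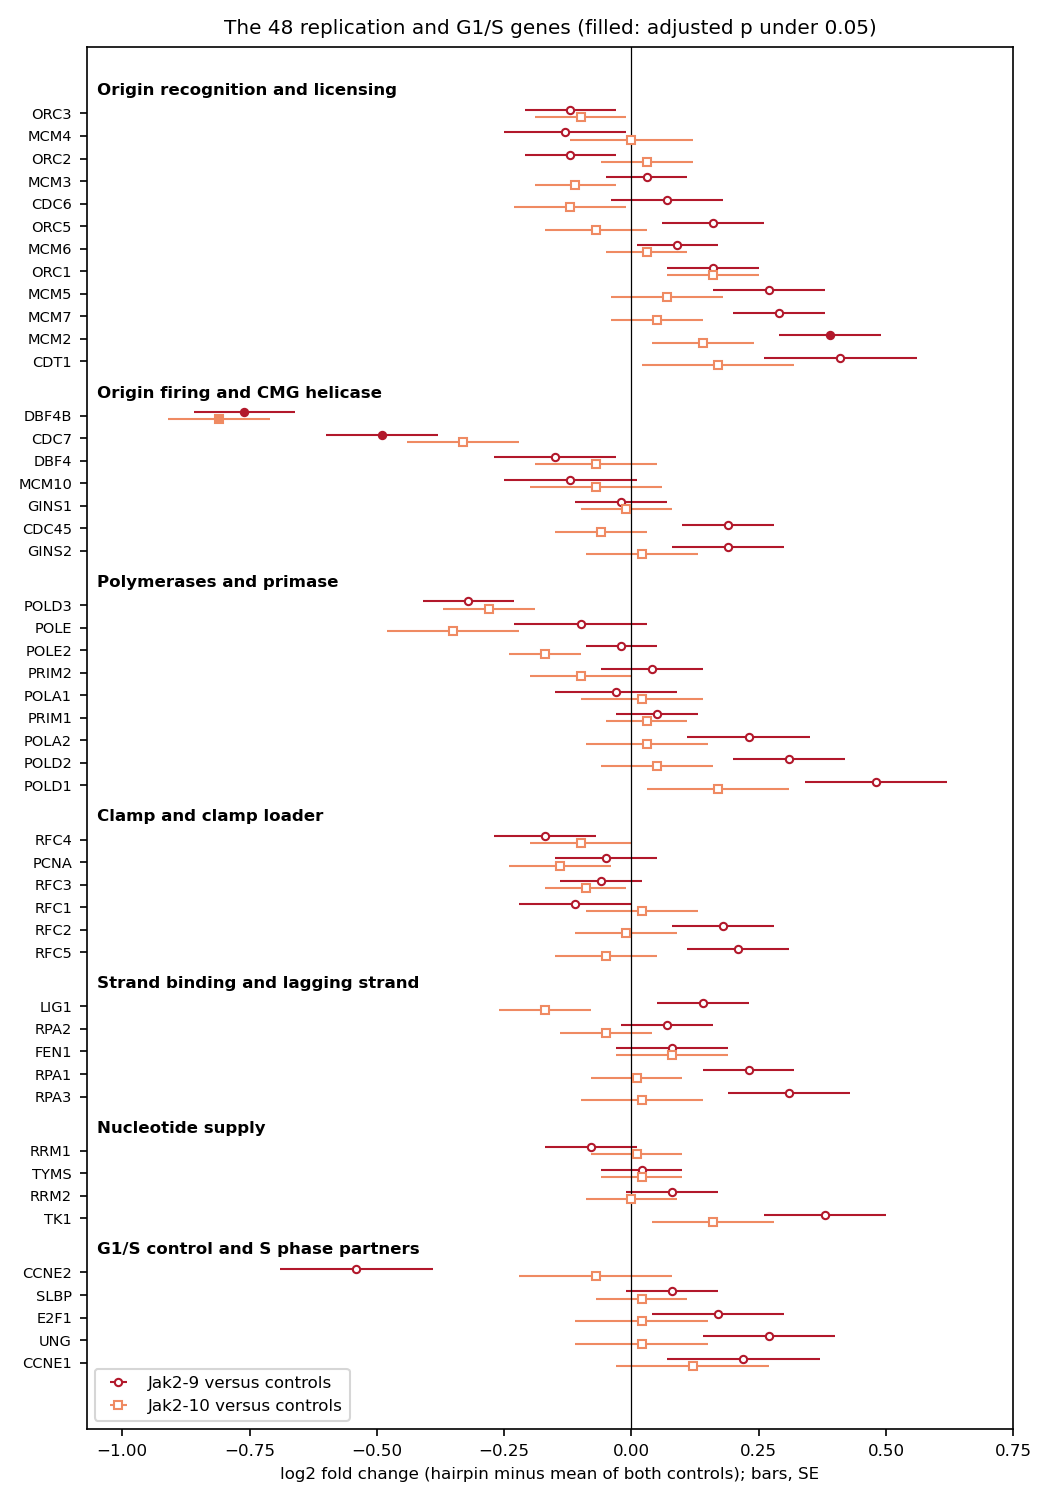
Log2 fold change of each of the 48 genes (x axis) by role group (y axis), for Jak2-9 (circles) and Jak2-10 (squares) against the mean of both controls, with SE bars. Filled symbols passed an adjusted p of 0.05: DBF4B with both hairpins, and CDC7 and MCM2 with Jak2-9. Open symbols did not pass, among them CCNE2 (-0.54) and POLD1 (0.48) with Jak2-9, which lie as far from 0 as MCM2 (0.39).

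DBF4B and CDC7 belong to the kinase that starts origins. CDC7 is its catalytic subunit, and DBF4 and DBF4B (also known as DRF1) are alternative activating partners. The stretches before their transcription starts are printed here with that of MCM2, because these 4 genes carry the calls and the paralog comparison below. The sequences are RefSeq's on GRCh38.p14, the 150 bases before the start on the plus strand, at chr17:44708515-44708664 (DBF4B), chr1:91500962-91501111 (the second of the CDC7 starts), chr7:87876343-87876492 (DBF4) and chr3:127598261-127598410 (MCM2). Capitals mark E2F words, here any of TTTCCCGC, TTTCGCGC, TTTGCCGC or TTTGGCGC on either strand.
DBF4B: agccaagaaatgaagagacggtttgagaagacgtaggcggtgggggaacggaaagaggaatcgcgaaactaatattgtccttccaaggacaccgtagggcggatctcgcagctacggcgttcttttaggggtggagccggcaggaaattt
CDC7: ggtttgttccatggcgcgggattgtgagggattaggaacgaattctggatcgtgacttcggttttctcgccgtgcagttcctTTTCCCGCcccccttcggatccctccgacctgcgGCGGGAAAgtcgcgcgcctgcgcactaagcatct
DBF4: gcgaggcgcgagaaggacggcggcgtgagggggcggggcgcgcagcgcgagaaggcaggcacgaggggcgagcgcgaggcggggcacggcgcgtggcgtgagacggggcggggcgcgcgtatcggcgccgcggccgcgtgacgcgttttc
MCM2: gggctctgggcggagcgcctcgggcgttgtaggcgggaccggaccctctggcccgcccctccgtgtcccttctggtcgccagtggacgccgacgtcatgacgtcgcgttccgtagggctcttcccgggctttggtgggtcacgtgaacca
This CDC7 stretch held an E2F word on each strand, and the other 3 held none. The first CDC7 start, at chr1:91500701-91500850 for the same window, had none either.

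DBF4B fell with both hairpins. Its log2 intensity was 4.56, 4.83 and 4.77 with Jak2-9 and 4.66, 4.63 and 4.73 with Jak2-10, against 5.39, 5.43 and 5.28 in GFP cells and 5.40, 5.76 and 5.65 in Luc cells. The 6 knockdown values were all lower than the 6 control values, with a gap between the highest knockdown and the lowest control array wider than the spread of either hairpin group. Mean intensity was 26.4 ± 2.5 with Jak2-9 and 25.5 ± 0.971 with Jak2-10, against 41.3 ± 2.18 in GFP cells and 48.8 ± 6.04 in Luc cells (SD, n = 3 each). The log2 fold change was -0.79 ± 0.08 (SE, 95% interval -0.95 to -0.62, adjusted p = 5.22e-05).

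Each hairpin gave a like value, -0.76 ± 0.10 with Jak2-9 (adjusted p = 0.000492) and -0.81 ± 0.10 with Jak2-10 (adjusted p = 0.000724). Their difference was -0.05 ± 0.11 (adjusted p = 0.878). DBF4B was the 1 gene of the 48 that passed in all 4 comparisons of a single hairpin with a single control, which 0.126% of all genes did in the downward direction and 0.00% in the upward one. The adjusted p was 0.0148 for Jak2-9 against GFP, where 0.645% of all genes fell, and 0.000490 against Luc, where 1.16% fell. It was 0.0269 for Jak2-10 against GFP (0.142% of all genes) and 0.000773 against Luc (0.662%). This call in all 4 was lost without Jak2-10 replicate 1, 2 or 3, GFP replicate 1, 2 or 3, or Luc replicate 3, and in a fit of only the arrays compared (0 genes in each). Luc lay above GFP by 0.24 (unadjusted p = 0.0494, adjusted p = 1).

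The DBF4B signal was dim. Its intensity ran from 23.6 to 54.1 over the arrays, around the array medians of 44.9 to 49.1, while the other 47 genes were above the median on every array. Only 1 probe set named DBF4B, so no second reading of the transcript was at hand. Its knockdown values, 4.56 to 4.83, lay among the 9 cell type markers below the median on every array (4.13 to 5.18). Its control values, 5.28 to 5.76, lay above that range, but choosing markers below the median caps the range. Lymphoid and fibroblast markers outside these 9 reached the control values, CD3D at 4.69 to 5.55, COL1A1 at 5.01 to 5.61 and CD79A at 5.37 to 6.31. Detection calls were not used here, so the signal may be background with knockdown and in controls, and the size of the fall is uncertain. In knockdown versus control the fall passed the threshold with each of the 12 arrays left out in turn, at -0.84 to -0.75.

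CDC7 fell by less. It read 8.67, 8.97 and 9.16 with Jak2-9 and 9.23, 9.16 and 8.90 with Jak2-10, against 9.29, 9.40 and 9.42 in GFP cells and 9.44, 9.44 and 9.58 in Luc cells. The groups did not overlap, but the highest Jak2-10 array and the lowest GFP array were close. CDC7 was at 75.2% of control, a log2 fold change of -0.41 ± 0.09 (SE, 95% interval -0.60 to -0.22, adjusted p = 0.0276). With Jak2-9 alone it was -0.49 ± 0.11 (adjusted p = 0.0278), and with Jak2-10 -0.33 ± 0.11, which missed the threshold (adjusted p = 0.459). The difference between the hairpins was 0.16 ± 0.13 (adjusted p = 0.604).

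The CDC7 call sat near the threshold. It was lost without Jak2-10 replicate 2 (adjusted p = 0.0535) or replicate 3 (0.0722), without GFP replicate 1 (0.0570), 2 (0.0795) or 3 (0.0754), and without Luc replicate 1 (0.0560), 2 (0.0641) or 3 (0.0852). For Jak2-9 alone the call was lost without Jak2-9 replicate 1, at -0.36 (adjusted p = 0.111), and without any 1 of the 6 control arrays (adjusted p = 0.0515 to 0.0636). With both outlying knockdown arrays left out, Jak2-9 replicate 1 and Jak2-10 replicate 3, knockdown versus control gave -0.30 (adjusted p = 0.0283). Against GFP alone CDC7 was at -0.35 (adjusted p = 0.278), and against Luc alone at -0.47 (adjusted p = 0.0516).

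DBF4, the better known activating partner, did not pass in any comparison. Its log2 intensity was 8.31, 8.85 and 8.83 with Jak2-9 and 8.90, 8.73 and 8.60 with Jak2-10, against 8.80, 8.87 and 8.95 in GFP cells and 8.67, 8.80 and 8.80 in Luc cells. Jak2-9 replicate 1 and Jak2-10 replicate 3 lay below all controls, and the other 4 knockdown arrays lay within the control range. The log2 fold change of DBF4 was -0.11 ± 0.10 (adjusted p = 0.584, 95% interval -0.32 to 0.09), and with both outlying arrays left out it was 0.01. The DBF4B and DBF4 intervals did not overlap; the difference between these genes was not itself tested.

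**Figure D2:**
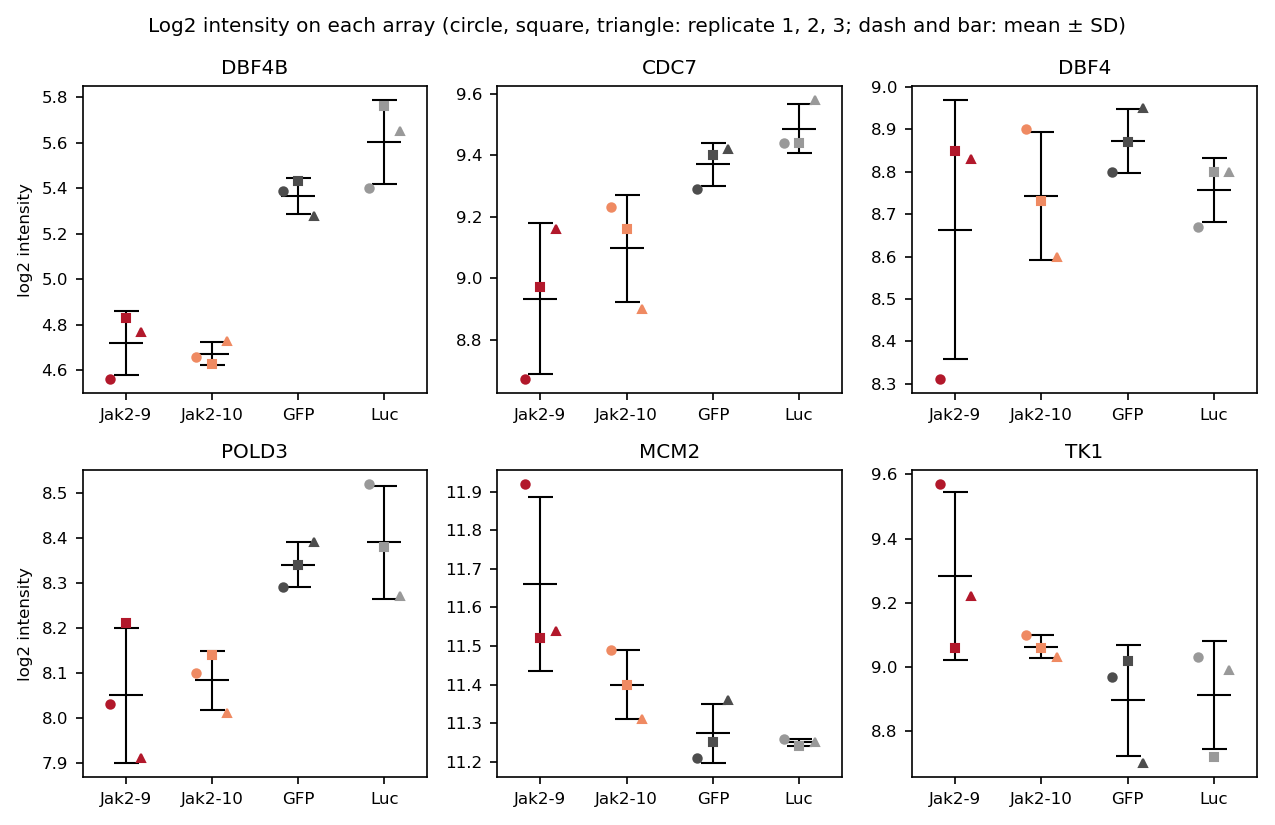
Log2 intensity (y axis, a separate scale in each panel) of DBF4B, CDC7, DBF4, POLD3, MCM2 and TK1 on the 12 arrays by group; circles, squares and triangles are replicates 1, 2 and 3, and the dash with its bar is the mean ± SD. The DBF4B, CDC7 and POLD3 arrays of both hairpins lie below all control arrays, while most of those of DBF4 overlap them.

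The helicase partners of the firing group did not pass in any comparison. CDC45, which joins the active helicase, read 9.54, 9.23 and 9.15 with Jak2-9 and 9.08, 9.10 and 9.01 with Jak2-10, against 9.07 to 9.14 over the control arrays. The Jak2-9 arrays were all above the controls, as in 6 of the 48 genes and 9.41% of all genes, and the Jak2-10 arrays were not. GINS2, a GINS subunit, had a log2 fold change of 0.11 ± 0.09 (adjusted p = 0.577), GINS1 of -0.02 and the loading factor MCM10 of -0.10. Over the 7 firing genes the median was -0.10, with 5 below 0.

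In licensing, 1 of 12 genes was called in 1 comparison. MCM2, a subunit of the ring and a target of CDC7, was among the 2 falls and 1 rise called with Jak2-9; the falls were DBF4B and CDC7. With this hairpin 1.47% of all genes fell and 1.60% rose. At an unadjusted p under 0.05, 11 of the 48 were higher and 4 lower with Jak2-9 (22.9% and 8.33%), against 17.0% and 7.22% of all genes. MCM2 read 11.92, 11.52 and 11.54 with Jak2-9 and 11.49, 11.40 and 11.31 with Jak2-10, against 11.21, 11.25 and 11.36 in GFP cells and 11.26, 11.24 and 11.25 in Luc cells. All 3 Jak2-9 arrays were above all controls, with replicate 1 well above the rest, and the lowest Jak2-10 array lay below the highest GFP array. The Jak2-9 log2 fold change of MCM2 was 0.39 ± 0.10 (131% of control, adjusted p = 0.0428), that of Jak2-10 was 0.14 ± 0.10 (adjusted p = 1), and the 2 hairpins together gave 0.27 ± 0.08 (adjusted p = 0.125).

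The MCM2 call sat near the threshold too. It was lost with each array centred on its median (adjusted p = 0.0551), after quantile normalization (0.0525), in a fit of only the arrays compared (0.0771), and with GFP alone (0.136) or Luc alone (0.0876) as control. Without Jak2-9 replicate 1 the Jak2-9 value was 0.26 (adjusted p = 0.162). The call was also lost without Jak2-10 replicate 1 (0.0612) or 2 (0.0625), without GFP replicate 1 (0.0902), 2 (0.0882) or 3 (0.0631), and without Luc replicate 1 (0.0788), 2 (0.0947) or 3 (0.0743).

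Its ring partners did not pass. MCM7 had a Jak2-9 log2 fold change of 0.29 ± 0.09 (adjusted p = 0.0790), with all 3 Jak2-9 arrays above all controls, and MCM5 one of 0.27 ± 0.11 (adjusted p = 0.155). Over both hairpins MCM7 and MCM5 were each at 0.17, MCM6 at 0.06, MCM3 at -0.04 and MCM4 at -0.06, with values of both signs within the ring. CDT1, the loader, had the highest value of the licensing genes, 0.29 ± 0.12 (adjusted p = 0.256). CDT1 read 8.72, 7.81 and 8.18 with Jak2-9 and 8.08, 8.05 and 7.85 with Jak2-10, against 7.69 to 7.92 over the controls, so Jak2-9 replicate 1 was far above the other arrays. With both outlying arrays left out CDT1 was at 0.20. ORC3, of the origin recognition complex, was lowest at -0.11 ± 0.07 (adjusted p = 0.472), and ORC1 was at 0.16, ORC5 at 0.04, CDC6 at -0.02 and ORC2 at -0.05.

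Among the 9 polymerase and primase genes, POLD3, an accessory subunit of DNA polymerase delta, came closest to a call. It read 8.03, 8.21 and 7.91 with Jak2-9 and 8.10, 8.14 and 8.01 with Jak2-10, against 8.29, 8.34 and 8.39 in GFP cells and 8.52, 8.38 and 8.27 in Luc cells. The hairpin groups and the controls did not overlap. Its log2 fold change was -0.30 ± 0.07 (81.2% of control, adjusted p = 0.0515), with -0.32 ± 0.09 for Jak2-9 (adjusted p = 0.0602) and -0.28 ± 0.09 for Jak2-10 (adjusted p = 0.390). POLD3 passed with each array centred on its median (adjusted p = 0.0380), after quantile normalization (0.0230) and with the mean of a gene's probe sets (0.0308). It also passed with array weights (0.0412), with the hairpin as a random block (0.0241), and narrowly with the dimmest 30% of genes left out (0.05 after rounding). The random block was fitted at a correlation of -0.033 within groups, so it added no spread between hairpins. With 1 array left out POLD3 passed in 2 of 12 fits, without Jak2-9 replicate 1 (0.0468) or replicate 2 (0.0259). Over the 11 settings other than left-out single arrays, its adjusted p ran from 0.0230 to 0.303.

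Other subunits of the same polymerase had values of the opposite sign. POLD1, the catalytic subunit, had a log2 fold change of 0.32 ± 0.11 (adjusted p = 0.189). Jak2-9 replicate 1 was highest, at 9.97, with 9.21 and 9.27 on the other Jak2-9 arrays. Its Jak2-10 arrays were at 9.11, 9.14 and 9.28, against 8.86 to 9.17 over the controls. With both outlying arrays left out POLD1 was at 0.18. POLD2 was at 0.18 ± 0.09 (adjusted p = 0.339). POLE, the catalytic subunit of polymerase epsilon, was at -0.22 ± 0.10 (adjusted p = 0.302), and the rest of this group lay between -0.09 (POLE2) and 0.13 (POLA2).

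No gene of the clamp, lagging strand, nucleotide or G1/S control groups passed in any comparison. PCNA, the sliding clamp, was at -0.09 ± 0.08, and the clamp loader subunits lay between -0.13 ± 0.08 for RFC4 (adjusted p = 0.439) and 0.08 ± 0.08 for RFC2 (adjusted p = 0.624). Of the lagging strand genes RPA3, a subunit of the single-strand binding protein, was highest at 0.17 ± 0.10 (adjusted p = 0.415), and LIG1, the ligase that joins Okazaki fragments, was lowest at -0.02 ± 0.08 (adjusted p = 0.935). RPA3 was at 10.64 on Jak2-9 replicate 1 and at 10.14 and 10.01 on the other Jak2-9 arrays, and with both outlying arrays left out its log2 fold change was 0.09.

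TK1, thymidine kinase of the salvage pathway, was the 1 gene of the 48 with all 6 knockdown arrays above all 6 controls. Its log2 intensity was 9.57, 9.06 and 9.22 with Jak2-9 and 9.10, 9.06 and 9.03 with Jak2-10, against 8.97, 9.02 and 8.70 in GFP cells and 9.03, 8.72 and 8.99 in Luc cells. The lowest Jak2-10 and the highest Luc array were nearly equal, and the log2 fold change of 0.27 ± 0.10 missed the threshold (adjusted p = 0.190). Over all genes 1.20% had every knockdown array above every control, and 1.51% had them all below, as DBF4B, CDC7 and POLD3 did. The other nucleotide genes were near 0, with RRM2 at 0.04 and RRM1 at -0.04, both of ribonucleotide reductase, and TYMS, thymidylate synthase, at 0.02.

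The cyclin E genes had values of opposite sign. CCNE2 read 7.44, 8.06 and 8.31 with Jak2-9 and 8.39, 8.45 and 8.39 with Jak2-10, against 8.24, 8.31 and 8.63 in GFP cells and 8.47, 8.64 and 8.58 in Luc cells. Jak2-9 replicate 1 was far below every other array, and the Jak2-10 arrays lay within the control range. The Jak2-9 log2 fold change of CCNE2 was -0.54 ± 0.15 (adjusted p = 0.0593), and without that array together with Jak2-10 replicate 3 it was -0.29. Over both hairpins CCNE2 was at -0.30 ± 0.12 (adjusted p = 0.235), and CCNE1 at 0.17 ± 0.12 (adjusted p = 0.501). E2F1, the transcription factor, was at 0.10 ± 0.11, UNG, which removes uracil from DNA, at 0.15 and SLBP, which binds histone messages, at 0.05.

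Fewer of these genes were called with Jak2-10. Of the 48 genes 1 fell, DBF4B, and 0 rose, against 0.645% and 0.0419% of all genes, and at an unadjusted p under 0.05 5 were lower and 0 higher, against 3.11% and 2.65% of all genes. Every Jak2-10 array was below all controls in 5 genes (CDC7, DBF4B, POLD3, POLE2 and LIG1, against 2.60% of all genes) and above them in 1, TK1 (2.68%), and every Jak2-9 array was below them in 3 (CDC7, DBF4B and POLD3, against 3.80%). The number that differed from control by more than 0.2 was 4 with Jak2-10 (10.1% of all genes) and 17 with Jak2-9 (32.5% of all genes). In the test of Jak2-10 minus Jak2-9 itself, 0 of 48 genes passed (limma, 0.00% of all genes in each direction), while 1 was higher and 6 lower at an unadjusted p under 0.05, against 2.50% and 7.33% of all genes. The largest of these differences were in CCNE2 (0.47 ± 0.17, unadjusted p = 0.0161, adjusted p = 0.499) and LIG1 (-0.31 ± 0.11, unadjusted p = 0.0113, adjusted p = 0.499). Between the controls, Luc minus GFP, 0 of 48 passed (0.00% of all genes), and only DBF4B reached an unadjusted p under 0.05, as 1.01% of all genes did in its direction and 0.905% in the other.

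The 2 outlying arrays bore on these genes in different ways. Jak2-9 replicate 1 held the highest of the 12 values in 20 genes and the lowest in 13, which is 41.7% and 27.1% of the list, against 36.2% and 19.2% of all genes. It differed by more than 0.3 from the mean of its group mates in 25 of the 48 genes, above in 15 and below in 10. Of all genes 41.1% differed by as much on this array. Jak2-10 replicate 3 held the lowest value in 20 genes (41.7%, against 17.8% of all genes) and the highest in 0 (6.75% of all genes). The median SD within a group over the 48 genes was 0.20 with Jak2-9 and 0.10 with Jak2-10, against 0.07 in GFP cells and 0.09 in Luc cells. Over all genes it was 0.17 with Jak2-9, 0.12 with Jak2-10, 0.10 in GFP cells and 0.10 in Luc cells. With both arrays left out the same 2 genes, CDC7 and DBF4B, passed in knockdown versus control, and the median was 0.06 with 35 genes above 0. The share of all genes above 0 was not taken in that fit.

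**Figure D3:**
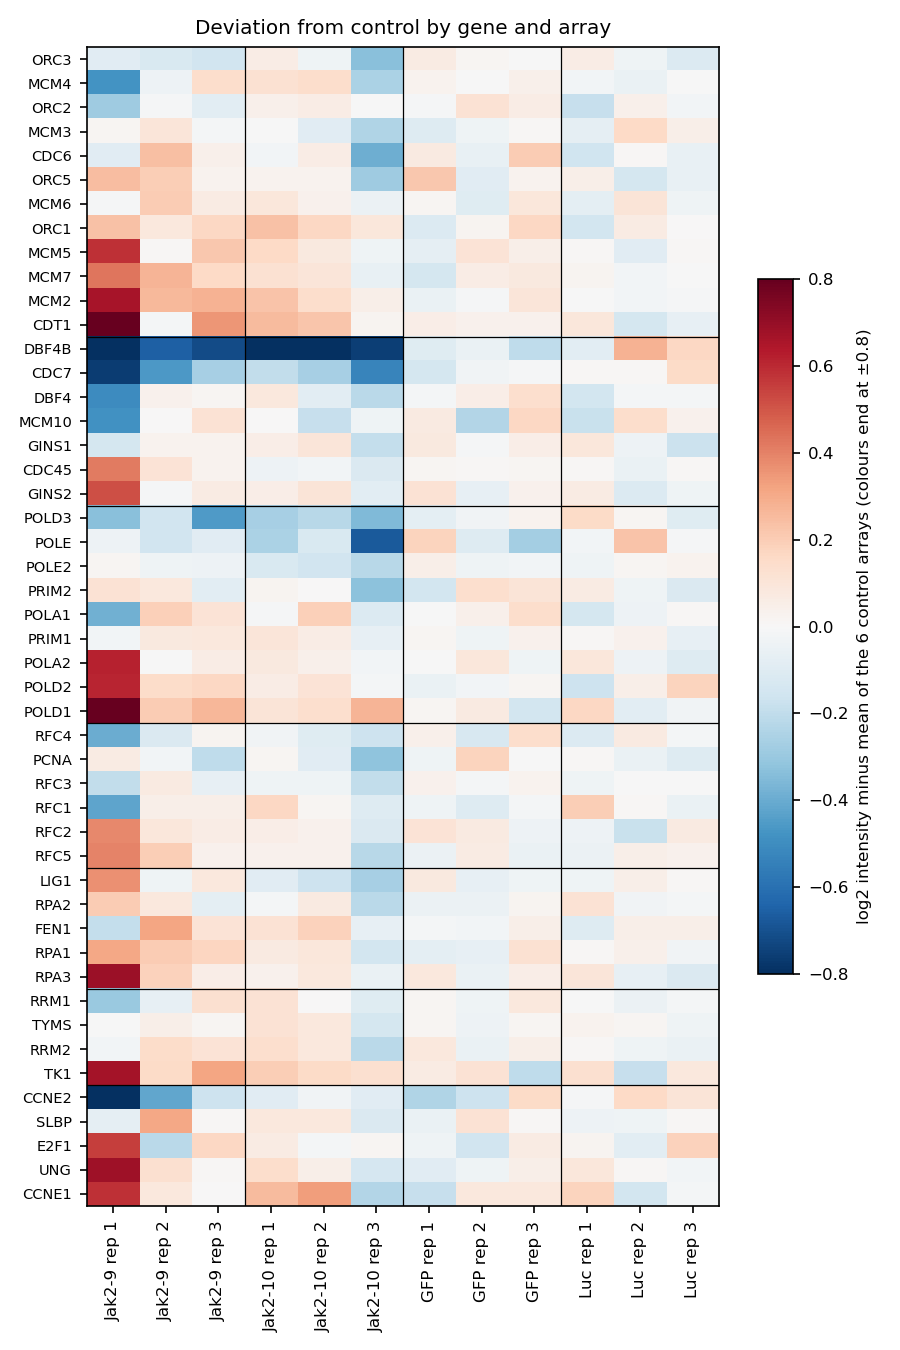
Log2 intensity minus the mean of the 6 control arrays for each gene (y axis, by role group, divided by lines) and array (x axis); red is above control and blue below, with colours ending at 0.8. Jak2-9 replicate 1 has the strongest colours in both directions, Jak2-10 replicate 3 is mostly blue, and only DBF4B is strongly blue on all 6 knockdown arrays.

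A control probe set moved with the knockdown. The Alu repeat probe set read 14.01 ± 0.10 with Jak2-9 and 14.10 ± 0.08 with Jak2-10, against 14.56 ± 0.08 in GFP cells and 14.66 ± 0.02 in Luc cells (log2, SD, n = 3 each), and its part in the falls of DBF4B and CDC7 was not tested. The 3′ minus 5′ difference of the GAPDH control probe sets, a measure of RNA integrity, was 0.01 ± 0.08 with Jak2-9 and -0.07 ± 0.06 with Jak2-10, against -0.03 ± 0.04 in GFP cells and -0.05 ± 0.05 in Luc cells. That of ACTB was 0.23 ± 0.16 with Jak2-9 and 0.17 ± 0.03 with Jak2-10, against 0.31 ± 0.11 in GFP cells and 0.23 ± 0.02 in Luc cells. Jak2-9 replicate 1 was the highest of the 12 arrays in both, at 0.09 for GAPDH and 0.42 for ACTB, with -0.05 and -0.02 for GAPDH and 0.13 and 0.15 for ACTB on its group mates. Its part in the MCM2 call was not tested.

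Of the 48 genes, 19 had more than 1 probe set, and some of these disagreed. PRIM2, the large primase subunit, was at -0.03 ± 0.08 at its brightest probe set, but its second one read 5.53, 5.98 and 5.95 with Jak2-9 and 6.15, 6.14 and 5.86 with Jak2-10, against 6.42, 6.24 and 6.50 in GFP cells and 6.38, 6.42 and 6.39 in Luc cells. There the knockdown arrays were all lower than the controls. With each probe set tested on its own over 19415 probe sets, of which 2.08% fell and 0.603% rose, this PRIM2 probe set fell (-0.46 ± 0.09, SE, adjusted p = 0.0123), and the third, dimmer one was at 0.00. RefSeq lists a pseudogene of PRIM2, PRIM2BP, and the files do not say which copies the probes match, so the PRIM2 readings are uncertain.

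MCM4 had 4 probe sets, of which 3 were at -0.06, -0.08 and -0.07 and the dimmest at 0.37 ± 0.10 (adjusted p = 0.0809). That MCM4 probe set read 9.62, 9.97 and 10.08 with Jak2-9 and 9.98, 9.88 and 9.82 with Jak2-10, against 9.38, 9.36 and 9.82 in GFP cells and 9.42, 9.54 and 9.63 in Luc cells, so that GFP replicate 3 and Luc replicate 3 overlapped the knockdown arrays. TYMS was at 0.02 at its bright probe set and at -0.30 and -0.32 at its dim ones, which did not pass (adjusted p = 0.186 and 0.170).

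**Figure D4:**
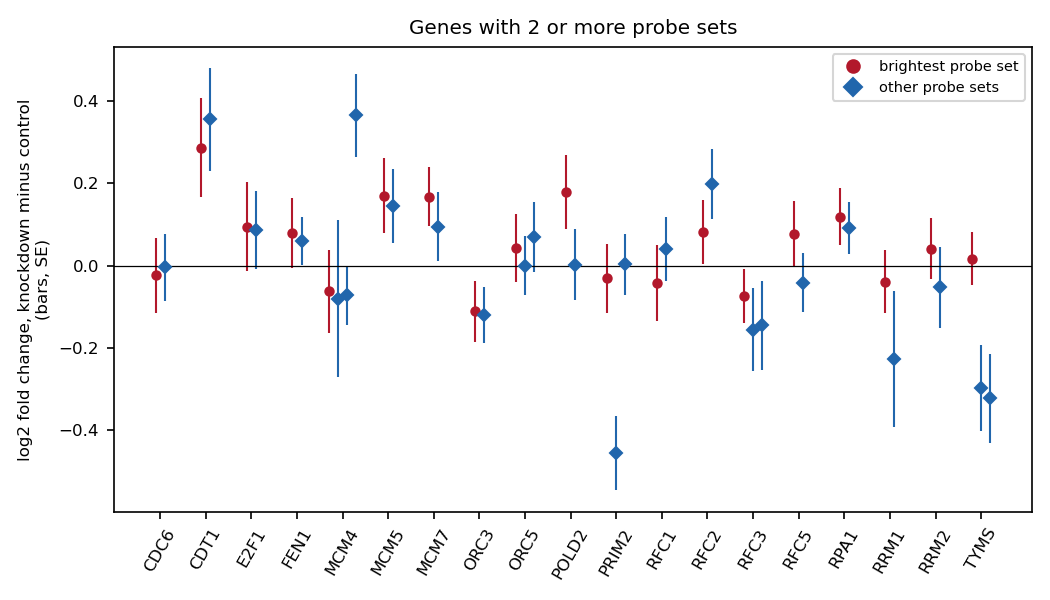
Log2 fold change of knockdown minus control (y axis, SE bars) at every probe set of the 19 genes with more than 1 (x axis); red circles are the brightest probe sets and blue diamonds the others. Most genes have probe sets close together, while PRIM2, MCM4 and TYMS have probe sets that lie apart.

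Promoter letters were compared for the 42 genes with an entry in the RefSeq promoter table, over the 250 bases before each start. MCM4, MCM5, POLD3, RPA2, RPA3 and CCNE2 had none. An E2F word stood before 16 of the 42 genes (38.1%, against 3.40% of 27305 genes), CDC7 among them, and in 16 of their 53 promoters (30.2%, against 2.79% of 35116). The median log2 fold change of knockdown versus control was 0.01 for these 16 genes and 0.04 for the 26 without one. The letters CCAAT, on either strand, stood in 54.7% of these promoters, against 32.0% of all. The STAT word TTCNNNGAA, which reads alike on both strands, stood in 5.66% of them, against 6.57% of all, and CDC7, PRIM1 and RFC2 were the 3 genes that held it. These are matches of letters and not measured binding.

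Other genes of the same pathway passed about as often as genes in general in knockdown versus control. Of 79 such genes 69 were measured, and 1 of them fell, ORC6, the smallest subunit of the origin recognition complex, while 0 rose. That is 1.45% and 0.00% of the 69, against 1.39% and 0.436% of all genes. ORC6 read 8.91, 8.75 and 8.93 with Jak2-9 and 8.78, 8.79 and 8.71 with Jak2-10, against 9.27, 9.06 and 9.01 in GFP cells and 9.11, 9.15 and 9.03 in Luc cells. All knockdown arrays were below all controls, and the log2 fold change was -0.30 ± 0.07 (81.5% of control, adjusted p = 0.0434). The ORC6 call was kept without Jak2-9 replicate 1 or 3 and lost without any 1 of the other 10 arrays, with values of -0.32 to -0.26 and an adjusted p of up to 0.139. The median of the 69 genes was -0.02 in knockdown versus control. With either hairpin alone 0 of the 69 passed. Of all genes 1.47% fell and 1.60% rose with Jak2-9, and 0.645% fell and 0.0419% rose with Jak2-10.

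Mitotic genes, which act in another phase of the cell cycle, were read beside them. Of 36 measured G2/M genes 0 passed in knockdown versus control, where 1.39% of all genes fell and 0.436% rose. Their median was 0.02. With Jak2-9, 2 of them rose (5.56%, against 1.60% of all genes), the mitotic kinases PLK1 (0.45 ± 0.11, adjusted p = 0.0419) and AURKB (0.47 ± 0.11, adjusted p = 0.0355). Without Jak2-9 replicate 1 neither PLK1 (0.27, adjusted p = 0.136) nor AURKB (0.33, adjusted p = 0.143) passed. With 1 array left out the call of PLK1 was lost in 10 of 12 cases, all but Jak2-9 replicates 2 and 3, and that of AURKB in 7, without Jak2-9 replicate 1, Jak2-10 replicate 1, GFP replicate 1 or 2, or any Luc array. PLK1 also missed the threshold with median centring (0.0542) and quantile normalization (0.0639). Both genes missed it in a fit of only the arrays compared (0.0862 for PLK1 and 0.0703 for AURKB). The same held with GFP alone (0.129 and 0.0872) or Luc alone (0.088 and 0.103) as control, and with both outlying arrays left out (0.0882 and 0.0903).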

How the data were processed

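RMA was used, per the submitters' processing notes (version not given in the sources used here). The authors deposited linear intensity values, 11.2 to 36233.5, per probe set and array; RMA evens out array distributions and can compress changes of dim probe sets. Log2 was taken with no pseudocount. Of 22930 probe sets, 524 control probe sets were left out; 19415 had 1 gene symbol, 125 several and 2866 none. Each of 11940 genes was read at its brightest probe set.

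A model of 4 group means was fitted to 12 arrays with limma 3.58.1 in R 4.3.3 (lmFit, eBayes), adjusted by Benjamini-Hochberg over all genes at 0.05, after tests on simulated data. The number of arrays limits precision. Of the 48 genes, those named in full were any called in a contrast, the lowest, highest and lowest-p gene of each role group, paralogs of these, and genes whose probe sets differed in sign by over 0.2; others named with values were chosen after their values were seen. Members and lists were chosen with earlier results of these data known. Arrays were not paired by replicate number in the main fit, since the labels do not say what the numbers share. Alternatives covered normalization, filtering, probe sets, variance, weights, controls and blocks.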

Additional observations from a re-analysis of the deposited data

How the results depend on the processing

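DBF4B fell under all 11 other settings run for knockdown versus control (-0.90 to -0.67, adjusted p at most 0.00325) and with each array left out (adjusted p at most 0.000375). The count of the 48 genes called in knockdown versus control, 2 in the report, was 4 with array weights (MCM2 higher; CDC7, DBF4B and POLD3 lower), 3 (POLD3 added) with median centring, quantile normalization, the dimmest genes left out, the mean of probe sets or the hairpin as a random block, 1 with GFP alone as control, 1 with Luc alone, and 1 to 3 with an array left out. The count with Jak2-9, 3 in the report, was 1 in a fit of only the arrays compared, 1 with GFP alone, 2 with Luc alone, median centring or both outlying arrays left out, and 4 with the mean of probe sets or an intensity trend. With an array left out it was 1 to 8. It was 1 without Jak2-9 replicate 1 or without any 1 of the 6 control arrays, 8 without Jak2-9 replicate 2 and 7 without Jak2-9 replicate 3. DBF4B's call in all 4 single comparisons was lost in a fit of only the arrays compared and in 7 of 12 fits with an array left out (0 genes in each, 1 in the other 5). The count with Jak2-10 stayed at 1 under every setting run, those between hairpins and between controls at 0, and the median at 0.01 to 0.06.

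Genes near 0 changed sign in knockdown versus control, with no call: TYMS to -0.01 after quantile normalization and -0.20 with the mean of its probe sets; MCM4 to 0.04 with that mean, 0.05 with array weights and 0.09 with both outlying arrays left out, an alternative chosen after seeing the data; PRIM2 to 0.03 and 0.01, RRM1 to 0.02 and 0.04 under these last settings; DBF4 to 0.01 with both left out; MCM3 to 0.00 with GFP alone. With an array left out MCM4 ran from -0.13 to 0.03, RRM1 from -0.09 to 0.02, LIG1 from -0.07 to 0.03, PRIM2 from -0.08 to 0.03 and TYMS from -0.01 to 0.06. The causes were not tested.

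With the replicate number as a block 2 of the 48 genes passed in knockdown versus control and 4 with Jak2-9, where CCNE2 was added (adjusted p = 0.0360); the other counts were the same, and ORC6 did not (0.0550). Deviations of same-numbered arrays of different groups correlated at -0.118 to 0.181 (mean 0.039). Those of differently numbered arrays correlated at -0.199 to 0.165 (mean -0.019). Of 12 arrays 5 correlated best with one of their own number. Dim signal limits DBF4B, and 3 arrays a group limit the rest.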
